A study of Mus musculus with 10 samples.

Results

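The genes described here encode RNA polymerase I, the factors that load it on ribosomal RNA genes, the proteins of small nucleolar RNPs (snoRNPs) and factors that assemble ribosomal subunits. They were taken by their symbol in the array's platform annotation from a list of 40 names, and each is read from the probe set with its highest mean over the 10 samples. All 40 passed the filter on dim probe sets, a log2 intensity above 5 in at least 4 of 10 samples, and all but Polr1b and Polr1c (38) were above that level in every sample. They are 40 of 10590 genes tested. The study compared fully grown mouse oocytes, arrested at the germinal vesicle stage, of 2 kinds. The 6 RNAi-transgenic samples came from mice that carry a transgene for RNA interference, with basonuclin (Bnc1) as its target going by the title of the series, and the 4 non-transgenic samples came from mice without it. Each sample was the RNA of 50 oocytes from 1 mouse on 1 array, so the spread between samples is that between mice together with that of the assay. The promoter of the transgene, the strain and the age of the mice are not given in the sources used here.

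RNA polymerase I makes a single long precursor of the large ribosomal RNAs from many gene copies in the nucleolus. UBTF and selectivity factor 1 bind the promoter, and RRN3 bridges the polymerase to them. The precursor is then modified by snoRNPs, cut and folded into both ribosomal subunits by assembly factors that act in order. Growing mouse oocytes make large amounts of ribosomes, and fully grown oocytes largely shut down transcription, so mRNA at this stage is mostly stored from growth. Basonuclin is a zinc finger protein known to act at ribosomal RNA genes, which is why these genes are of interest. The values here are mRNA levels, and neither ribosomal RNA synthesis nor the binding of basonuclin was measured.

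The genes differed between the groups in both directions, by small amounts, with more of them lower when all 10 samples were compared. Of the 40 genes, 4 were higher and 12 lower in transgenic oocytes at an adjusted p below 0.05 (limma, Benjamini-Hochberg over all genes tested), which is 40.0% called against 37.2% of all genes tested. For all genes tested, 18.9% were higher and 18.4% lower, so the total is near the background. The split between directions is 4 to 12 here. It was 2 to 3 in samples numbered 1 to 6 and 3 to 3 in samples numbered 7 to 13. At an adjusted p of 0.01 it was 2 to 4. The share of all genes tested called under these alternatives is not given here. Initiation factors, small subunit factors and large subunit factors had lower calls without a higher one, polymerase subunits had 3 of each, and the snoRNP proteins had a single call, higher. Differences are log2 values of transgenic minus non-transgenic throughout. Their median over the 40 genes was -0.08 with a median size of 0.22, and over all genes tested the median was -0.03 with a median size of 0.24. Only Polr1c (2.5%) differed by more than 2-fold, as against 9.34% of all genes tested, and without non-transgenic replicate 1 its difference was 0.74, which is under 2-fold. The groups did not overlap for 13 of the 40 genes, 4 higher and 9 lower. This compares with 28.0% of all genes tested, 14.8% higher and 13.1% lower. In pools of oocytes, fewer oocytes that hold an mRNA and less of it per oocyte cannot be told apart.

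**Figure D1:**
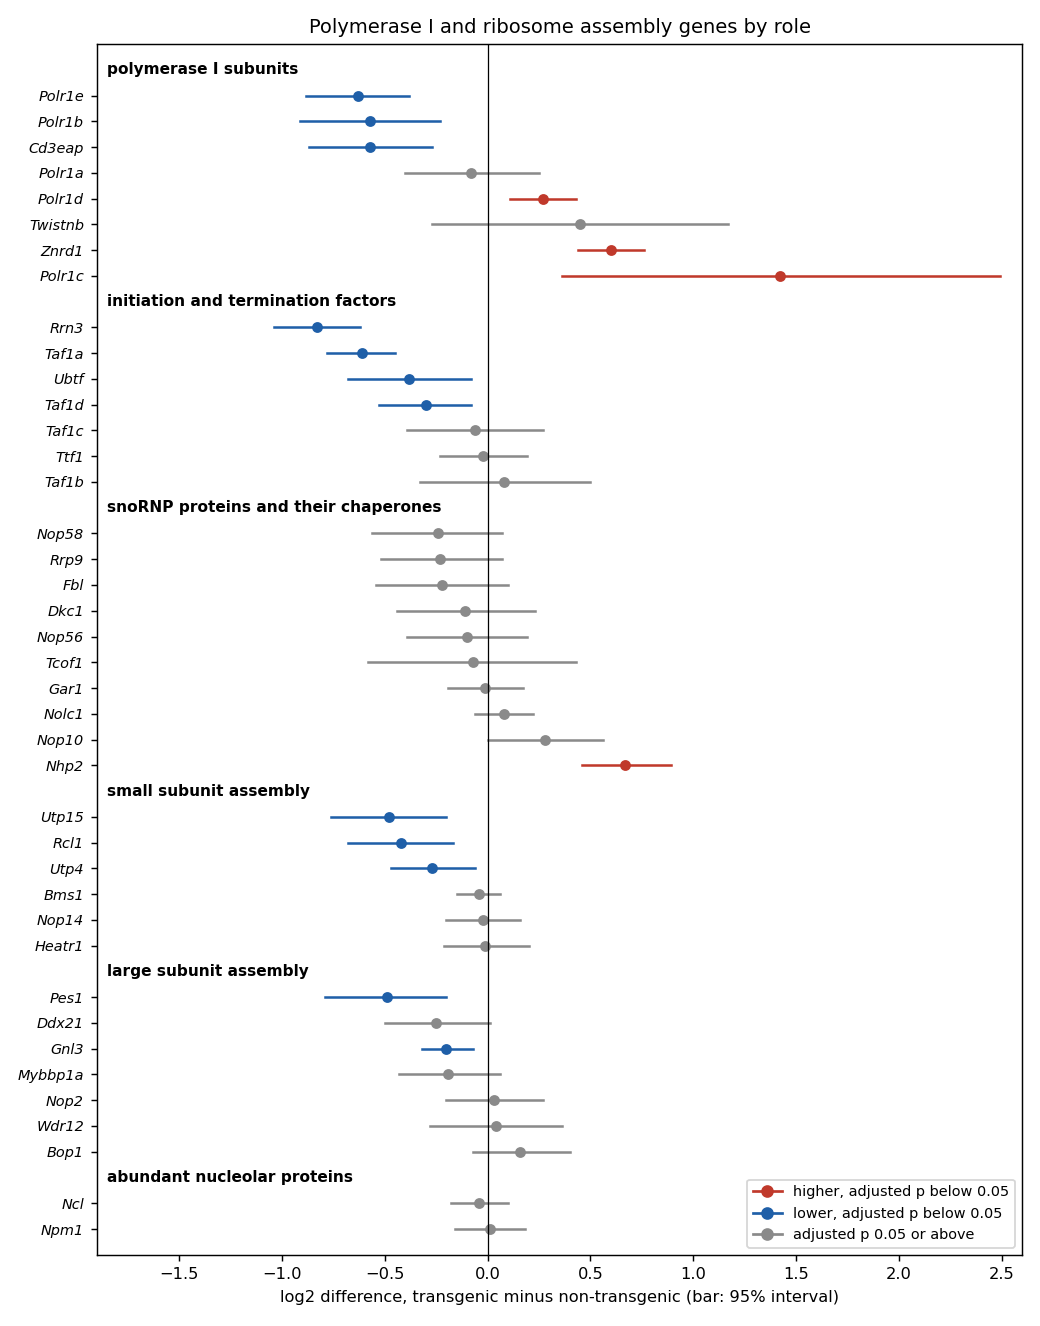
Log2 difference of each gene (transgenic minus non-transgenic, x axis), grouped by role down the page; points are differences from the limma fit and bars their 95% intervals. The 4 genes in red are higher, the 12 in blue lower, and the snoRNP proteins are nearly all grey.

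The targeted gene, Bnc1, lay between log2 3.67 and 4.26 in transgenic samples, below the filter level, and between 11.40 and 11.76 in non-transgenic samples, at least 95.1-fold lower (exact permutation p = 0.00476, two-sided, the smallest the design allows). All 9 oocyte markers matched on the array were above the filter. The brightest, Nlrp5, Ooep and Zp3, did not pass (-0.15, -0.08 and -0.02), and Figla was lower (-0.54). The summed intensity of the list lay between 151800 and 180200 in transgenic and between 157800 and 166900 in non-transgenic samples. Of 14 matched granulosa and cumulus cell markers, 7 were above the filter. The brightest, Nr5a2, Gja1 and Gata4, did not pass (-0.07, 0.55 and -0.37), and Fshr (1.24) and Cyp11a1 (1.57) were higher, while Amh, Amhr2 and Foxl2 were not above it. The summed intensity of that list was 1669 to 2732 in transgenic and 1735 to 1942 in non-transgenic samples. Of 10 stroma and vessel markers, 3 were above the filter, with Kdr (1.19) and Dcn (1.11) higher and Acta2 (-0.50) lower, and a sum of 281.3 to 342.3 in transgenic and 195.1 to 262.7 in non-transgenic samples. Of 7 blood and immune markers, 2 were above the filter, Laptm5 (1.06) higher and Srgn (-0.56) lower, and Lyz2, the next brightest, was not above it. That list had a sum of 2110 to 3224 in transgenic and 2782 to 3120 in non-transgenic samples. Figla, Fshr, Cyp11a1 and Foxl2 are named here after their values were seen. The part of other cells in the results below was not tested. Transgenic replicate 6 (0.995) and non-transgenic replicate 1 (0.992) had the lowest mean correlation with their own group. Without both of them 5 of the 40 genes were higher and 10 lower. The Gapdh control probe sets, which compare the 3′ with the 5′ end of the mRNA, differed by a median of 3.73 in transgenic and 4.07 in non-transgenic samples (exact permutation p = 0.114). This difference depends on RNA length and on how the RNA was labelled. The labels name about 15 µg of total RNA as the start, and the sources used here do not say whether RNA was amplified. With this difference as a covariate, 4 of the genes were higher and 8 lower. Polr1c, Ubtf, Taf1d, Utp4, Rcl1 and Gnl3 were no longer among them (adjusted p 0.056 to 0.358). Nop10 (higher) and Ddx21 (lower) were newly among them.

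Upstream sequences are shown for the genes with the lowest adjusted p in each direction whose upstream window overlaps no other gene's span, leaving aside pseudogenes. Those were Rrn3 and Taf1a, which were lower, and Nhp2, which was higher. The sequences are the 250 bases before the most upstream RefSeq transcript start (GRCm38.p6), 5′ to 3′ on the gene's strand. Capitals mark E-boxes (CACGTG, the site of MYC and its relatives, which are known to drive many genes of ribosome synthesis) and ETS cores (CCGGAAG, on either strand).
Rrn3, chr16:13780449-13780698, plus strand: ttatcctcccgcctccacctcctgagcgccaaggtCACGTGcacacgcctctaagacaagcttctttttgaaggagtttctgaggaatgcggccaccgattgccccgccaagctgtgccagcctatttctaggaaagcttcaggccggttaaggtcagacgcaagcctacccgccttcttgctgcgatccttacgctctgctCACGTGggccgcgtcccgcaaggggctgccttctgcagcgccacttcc
Taf1a, chr1:183388635-183388884, plus strand: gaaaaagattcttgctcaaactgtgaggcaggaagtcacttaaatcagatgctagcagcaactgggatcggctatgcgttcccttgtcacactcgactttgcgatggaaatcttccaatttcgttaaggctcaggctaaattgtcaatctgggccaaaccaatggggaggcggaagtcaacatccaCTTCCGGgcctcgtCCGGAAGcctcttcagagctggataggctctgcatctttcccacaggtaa
Nhp2, chr11:51619523-51619772, plus strand: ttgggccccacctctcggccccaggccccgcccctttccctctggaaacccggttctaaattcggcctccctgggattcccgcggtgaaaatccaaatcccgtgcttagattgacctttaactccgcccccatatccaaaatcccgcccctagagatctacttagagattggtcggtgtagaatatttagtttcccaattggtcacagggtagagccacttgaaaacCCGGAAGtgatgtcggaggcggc
The Rrn3 window holds 2 E-boxes, the Taf1a window 2 ETS cores and the Nhp2 window 1 ETS core. Of the 40 genes, 36 had an upstream sequence, and both strands were searched. An E-box was present in 3 of the 36 (8.33%), Rrn3, Cd3eap and Nop2, against 8.44% of tested genes with a sequence and 6.04% of all promoters of this length. An ETS core was present in 12 of the 36 (33.3%), against 13.9% of tested genes and 7.07% of all promoters. It was found in 3 of the 12 lower genes, 2 of the 4 higher genes and 7 of the 20 others with a sequence, and these shares were not compared by a test. A GC box (GGGCGG) was present in 50.0% of the 36, against 58.6% of tested genes and 33.0% of all promoters. TATAAA was in 2 of the 36 (5.56%), Dkc1 and Pes1, against 6.76% of tested genes and 13.0% of all promoters. These last motifs are not marked in the sequences, and a GC box can share letters with an ETS core.

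Of the 8 subunits of RNA polymerase I, 3 were higher and 3 lower, which is 75.0% called against 37.2% of all genes tested. Znrd1 encodes the small subunit that helps the enzyme cleave and proofread its RNA. Its log2 intensity was 11.28 at the lowest, 11.43 at the median and 11.54 at the highest transgenic sample, and 10.90, 10.76, 10.85 and 10.75 in non-transgenic replicates 1, 2, 7 and 8. Every transgenic sample was above every non-transgenic sample, with a gap of 0.38. The difference was 0.60 (SE 0.07, limma adjusted p = 8.13e-05), a 1.52-fold increase.

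Polr1c and Polr1d encode a pair of subunits that form a heterodimer and are shared with RNA polymerase III, and both were higher. Polr1c ranged from 8.01 over a median of 8.42 to 8.60 in transgenic oocytes, against 4.91, 7.70, 7.35 and 7.89 in non-transgenic replicates 1, 2, 7 and 8. The groups did not overlap, and non-transgenic replicate 1 lay far below the other 3 samples of its group and just below the filter level. With that value set to the level the increase was at least 2.64-fold (difference 1.42, SE 0.48, limma adjusted p = 0.0382). Without non-transgenic replicate 1 the difference was 0.74 (adjusted p = 0.00497), and without it and transgenic replicate 6 it was 0.70 (adjusted p = 0.00976). The call was lost when any 1 of non-transgenic replicate 7 and transgenic replicates 4, 6, 11, 12 and 13 was left out (adjusted p 0.0541 to 0.0661). Its further probe set, with 4.02 in non-transgenic replicate 1 and 5.35, 5.70 and 5.19 in replicates 2, 7 and 8, was also higher (difference 0.78, adjusted p = 0.043, in the fit of 16814 probe sets, of which 34.0% were called).

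Polr1d differed by much less, with 12.78, 12.94 and 13.16 at the lowest, median and highest transgenic sample and 12.63, 12.71, 12.71 and 12.63 in non-transgenic replicates 1, 2, 7 and 8. The groups were close but did not overlap (difference 0.27, SE 0.07, adjusted p = 0.0142). After centring each array on its median the difference was 0.21 and not past the threshold (adjusted p = 0.0514). Of its 3 further probe sets 1 was higher (0.22) and the others differed by 0.13 and -0.03 without passing.

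The 3 lower subunits were Polr1b, the second-largest subunit that forms part of the active centre, and the pair Polr1e and Cd3eap, whose proteins form a dimer on the outside of the enzyme. Polr1e lay at 7.58, 7.68 and 7.95 at the lowest, median and highest transgenic sample, against 8.44, 8.41, 8.47 and 8.14 in non-transgenic replicates 1, 2, 7 and 8. All transgenic samples were below all non-transgenic samples (difference -0.63, SE 0.11, adjusted p = 0.00129, 1.55-fold lower). Its probe set carries the suffix _x_at, which on this kind of array marks probes that can also match other transcripts. A further probe set without that suffix differed by -0.51 and missed the threshold in the probe set fit (adjusted p = 0.0539).

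Cd3eap lay between 5.56 and 6.10, with a median of 5.96, in transgenic samples, and at 6.23, 6.63, 6.27 and 6.73 in non-transgenic replicates 1, 2, 7 and 8, again without overlap (difference -0.57, SE 0.14, adjusted p = 0.00764). Polr1b was near the filter level in both groups, with 4.49, 4.99 and 5.06 at the lowest, median and highest transgenic sample and 5.23, 5.42, 5.86 and 5.22 in non-transgenic replicates 1, 2, 7 and 8. Of its 6 transgenic samples, 3 were above the level, and with the others set to it the decrease was at least 1.33-fold (adjusted p = 0.0143). The largest subunit, Polr1a, did not pass, with 7.99 to 8.63 in transgenic and 8.02 to 8.71 in non-transgenic samples (difference -0.08, 95% interval -0.40 to 0.25). Twistnb, of the stalk of the enzyme, did not pass either and had the widest interval of all uncalled genes (difference 0.45, 95% interval -0.27 to 1.17). Its lowest value, 7.33, was in non-transgenic replicate 2.

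Of 5 listed subunits that polymerase I shares with polymerases II and III, 3 were matched on the array and tested, without Polr2k and Polr2l. All 3 were called, against 37.2% of all genes tested, and so short a list does not speak for shared subunits as a class. Polr2h was higher, with 8.45 to 8.85 in transgenic and 7.65 to 8.44 in non-transgenic samples (difference 0.74, adjusted p = 0.0024). Polr2e (-0.37, adjusted p = 0.00705) and Polr2f (-0.25, adjusted p = 0.042) were lower. Polr2f lost its call when any 1 of 7 samples was left out (adjusted p up to 0.125).

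**Figure D2:**
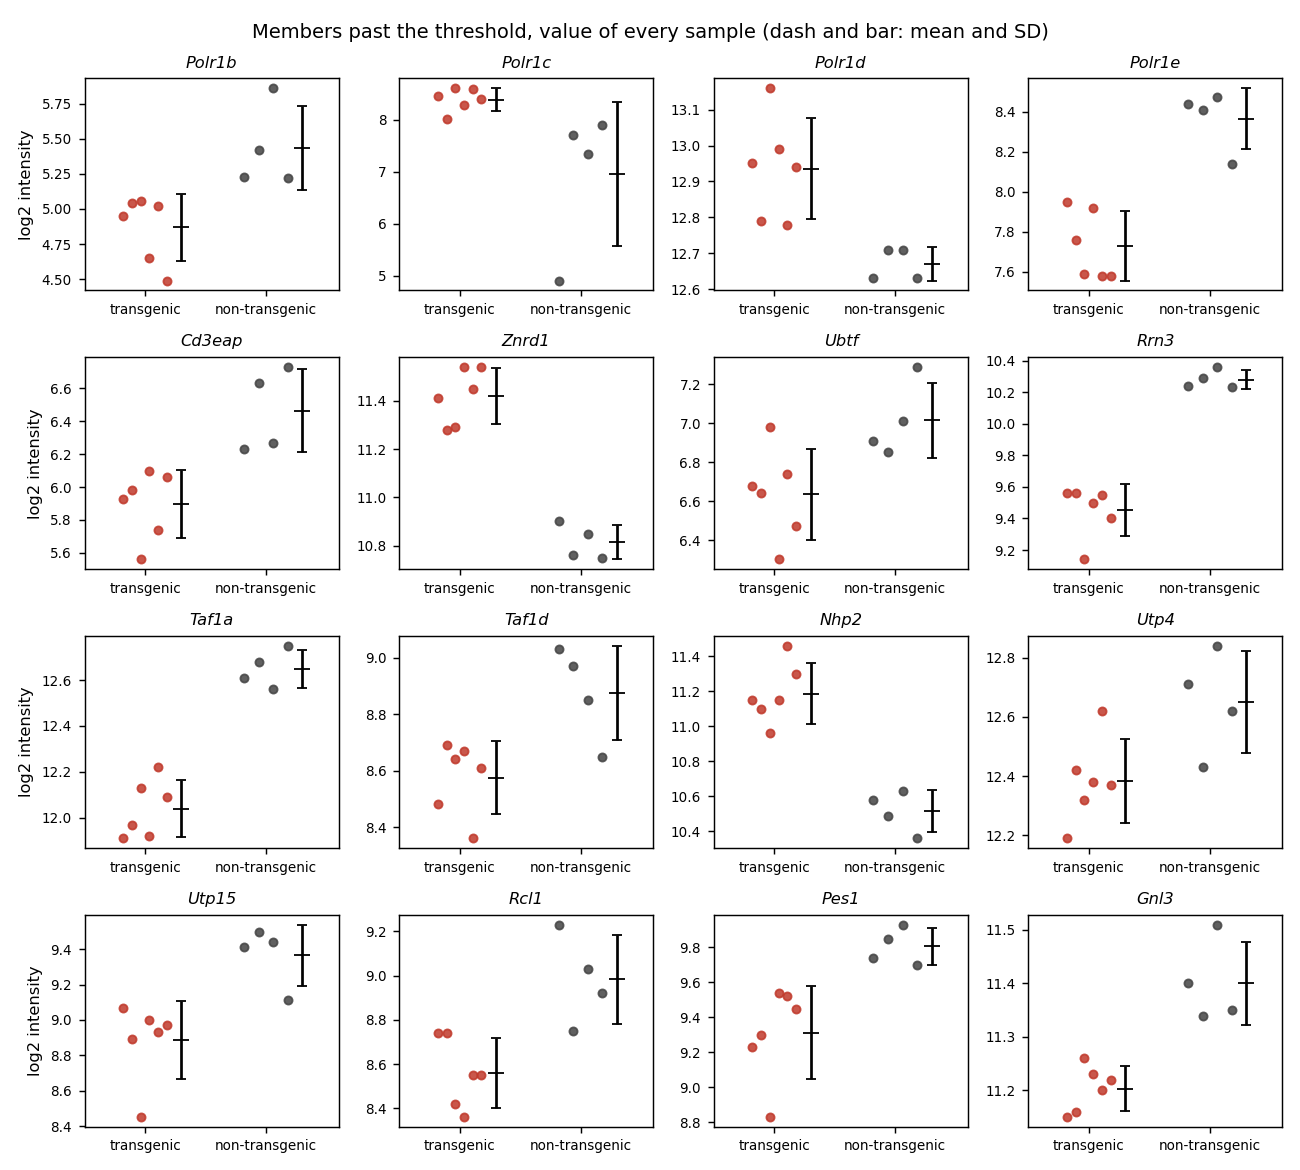
Log2 intensity (y axis, a scale of its own for each gene) of the 16 genes past the threshold in the 6 transgenic (red, left) and 4 non-transgenic (grey, right) samples; the dash and bar beside the points are the mean and SD. The low non-transgenic point of Polr1c is replicate 1, at 4.91.

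Factors that start or stop polymerase I transcription were lower or did not pass, with 4 of 7 lower. That is 57.1% called against 37.2% of all genes tested, of which 18.4% were lower. Rrn3, which carries the polymerase to its promoter and is the step that growth signals regulate, had the lowest adjusted p of the 40 genes. It lay at 9.14, 9.52 and 9.56 at the lowest, median and highest transgenic sample and at 10.24, 10.29, 10.36 and 10.23 in non-transgenic replicates 1, 2, 7 and 8. The groups were apart by 0.67, the widest gap of the 40, and the difference was -0.83 (SE 0.09, adjusted p = 5.17e-05), a 1.78-fold decrease. The lowest transgenic value was that of replicate 6.

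Selectivity factor 1 holds TBP and the products of Taf1a, Taf1b, Taf1c and Taf1d. Taf1a lay at 11.91, 12.03 and 12.22 at the lowest, median and highest transgenic sample and at 12.61, 12.68, 12.56 and 12.75 in non-transgenic replicates 1, 2, 7 and 8. It was 1.53-fold lower, with no overlap (difference -0.61, SE 0.07, adjusted p = 7.43e-05). Taf1d was also lower, at 8.36, 8.62 and 8.69 at the lowest, median and highest transgenic sample and at 9.03, 8.97, 8.85 and 8.65 in non-transgenic replicates 1, 2, 7 and 8. The groups overlapped at their edges (difference -0.30, adjusted p = 0.0381). Its brightest probe set is of the _x_at kind, and its 2 further probe sets above the filter differed by -0.18 and -0.10 without passing. The call of Taf1d was lost when any 1 of 6 samples was left out (adjusted p up to 0.100), among them non-transgenic replicate 1 (0.097), and without both arrays of low correlation (adjusted p = 0.103).

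The other subunits of the selectivity factor did not pass. Taf1b, at 7.46 to 8.56 in transgenic and 7.87 to 8.34 in non-transgenic samples, differed by 0.08 (95% interval -0.33 to 0.50), and Taf1c, at 5.95 to 6.63 in transgenic and 6.10 to 6.76 in non-transgenic samples, by -0.06 (-0.39 to 0.27). Whether Taf1a differed more than these was not tested. Ubtf, which bends promoter DNA and keeps ribosomal RNA genes open, lay at 6.30, 6.66 and 6.98 at the lowest, median and highest transgenic sample and at 6.91, 6.85, 7.01 and 7.29 in non-transgenic replicates 1, 2, 7 and 8. The groups overlapped and the call was at the edge (difference -0.38, SE 0.14, adjusted p = 0.0489). It was lost when any 1 of 9 samples was left out (adjusted p 0.0516 to 0.141) and with the Gapdh difference as a covariate, where the value was -0.19 (adjusted p = 0.358). In the probe set fit this probe set missed the threshold (adjusted p = 0.0534), and so did the further probe set of Ubtf (-0.47, adjusted p = 0.149). Ttf1, the terminator protein, lay at 5.80 to 6.26 in transgenic and 5.91 to 6.11 in non-transgenic samples and differed by -0.02 (95% interval -0.23 to 0.19).

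Proteins of snoRNPs and their chaperones had 1 call among 10, against 37.2% of all genes tested called and 18.9% higher. Nhp2, a core protein of the H/ACA snoRNPs that guide pseudouridine formation, was higher. It lay at 10.96, 11.15 and 11.46 at the lowest, median and highest transgenic sample and at 10.58, 10.49, 10.63 and 10.36 in non-transgenic replicates 1, 2, 7 and 8. The groups were apart by 0.33 (difference 0.67, SE 0.10, adjusted p = 0.00032, 1.59-fold higher). A further probe set, with groups that overlapped, was higher too (0.64, adjusted p = 0.015 in the probe set fit).

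The other H/ACA proteins bind in the same particle and did not pass. Gar1, at 10.80 to 11.22 in transgenic and 10.95 to 11.12 in non-transgenic samples, differed by -0.01 (95% interval -0.19 to 0.17). Nop10 was at 10.61 to 11.24 in transgenic and 10.40 to 10.87 in non-transgenic samples (difference 0.28, adjusted p = 0.114). The pseudouridine synthase Dkc1 was at 11.17 to 11.92 in transgenic and 11.33 to 11.93 in non-transgenic samples (difference -0.11, 95% interval -0.44 to 0.23). A further probe set of Dkc1 was lower (-0.63, adjusted p = 0.0174), with 10.84 to 11.71 in transgenic and 11.64 to 12.37 in non-transgenic samples, so its probe sets do not give 1 answer. The proteins of box C/D snoRNPs, which methylate the sugars of ribosomal RNA, did not pass, and their groups overlapped. The methyltransferase Fbl was at 7.69 to 8.47 in transgenic and 8.07 to 8.35 in non-transgenic samples (-0.22). Nop56 was at 9.68 to 10.38 in transgenic and 9.85 to 10.11 in non-transgenic samples (-0.10). Nop58 was at 8.96 to 9.63 in transgenic and 9.52 to 9.98 in non-transgenic samples (-0.24). These core proteins had differences below 0, as did 54.0% of all genes tested, and none of them passed. Rrp9, a protein of the U3 snoRNP, was at 5.22 to 5.76 in transgenic and 5.27 to 5.87 in non-transgenic samples (-0.23) and did not pass. Nolc1, a chaperone of snoRNPs, was at 10.39 to 10.55 in transgenic and 10.35 to 10.49 in non-transgenic samples (0.08) and did not pass. Tcof1, which joins polymerase I transcription with modification, was at 9.65 to 10.10 in transgenic samples. It was at 10.81 in non-transgenic replicate 1 and at 9.51 to 9.76 in the other 3 of its group (difference -0.07, 95% interval -0.58 to 0.43).

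Small subunit assembly factors were lower in 3 of 6 cases (50.0%), against 37.2% of all genes tested called and 18.4% lower. Utp15, Utp4 and Heatr1 belong to the early complex that binds the precursor as it is made and is known to be needed for its transcription. Utp15 lay at 8.45, 8.95 and 9.07 at the lowest, median and highest transgenic sample and at 9.41, 9.50, 9.44 and 9.11 in non-transgenic replicates 1, 2, 7 and 8. The groups were apart by only 0.05 (difference -0.48, SE 0.13, adjusted p = 0.0125). Its further probe set differed the other way without passing (0.30, adjusted p = 0.0964), and their mean did not pass (adjusted p = 0.447). The call of Utp15 depends on the probe set.

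Rcl1, known to take part in the cleavage that separates the small subunit part, lay between 8.36 and 8.74, with a median of 8.55, in transgenic samples and at 9.23, 8.75, 9.03 and 8.92 in non-transgenic replicates 1, 2, 7 and 8 (difference -0.42, SE 0.12, adjusted p = 0.0145). The groups all but touched, with a gap of 0.01. Without both arrays of low correlation the call was lost (adjusted p = 0.0655), and with the Gapdh covariate too (adjusted p = 0.056). Utp4 lay at 12.19, 12.37 and 12.62 at the lowest, median and highest transgenic sample and at 12.71, 12.43, 12.84 and 12.62 in non-transgenic replicates 1, 2, 7 and 8. The groups overlapped (difference -0.27, adjusted p = 0.0437), and the call was lost when any 1 of 8 samples was left out (adjusted p up to 0.131).

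Heatr1 was at 9.06 to 9.32 in transgenic and 9.10 to 9.42 in non-transgenic samples and did not pass (-0.01, 95% interval -0.21 to 0.20). Nop14, which takes part in early small subunit assembly, was at 7.36 to 7.51 in transgenic and 7.34 to 7.59 in non-transgenic samples and did not pass (-0.02, -0.20 to 0.16). Bms1, a GTPase that binds Rcl1, had the narrowest interval of the uncalled genes at its brightest probe set, at 13.86 to 14.07 in transgenic and 13.98 to 14.02 in non-transgenic samples (-0.04, -0.15 to 0.06). Its further probe set was lower, with 11.84 to 12.18 in transgenic and 12.29 to 12.80 in non-transgenic samples and no overlap (difference -0.47, adjusted p = 0.00392).

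Large subunit assembly factors had 2 lower among 7 (28.6%), against 37.2% of all genes tested called and 18.4% lower. Pes1 is the core of the PeBoW complex, in which its protein joins those of Bop1 and Wdr12. It lay at 8.83, 9.37 and 9.54 at the lowest, median and highest transgenic sample and at 9.74, 9.85, 9.93 and 9.70 in non-transgenic replicates 1, 2, 7 and 8. The groups did not overlap (difference -0.49, SE 0.13, adjusted p = 0.0136, 1.41-fold lower). Bop1 was at 7.87 to 8.30 in transgenic and 7.74 to 8.09 in non-transgenic samples (0.16, 95% interval -0.07 to 0.40). Wdr12 was at 7.91 to 8.27 in transgenic and 7.70 to 8.46 in non-transgenic samples (0.04, -0.28 to 0.36). Neither of these partners passed, and the difference between the 3 partners was not tested.

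Gnl3, which encodes nucleostemin, a nucleolar GTPase, had a small decrease with tight values. It lay at 11.15, 11.21 and 11.26 at the lowest, median and highest transgenic sample and at 11.40, 11.34, 11.51 and 11.35 in non-transgenic replicates 1, 2, 7 and 8 (difference -0.20, SE 0.06, adjusted p = 0.0179). The groups did not overlap, and with non-transgenic replicate 7 left out Gnl3 missed the threshold (adjusted p = 0.0527). The RNA helicase Ddx21 was at 7.01 to 7.36 in transgenic and 7.13 to 7.67 in non-transgenic samples (-0.25, 95% interval -0.50 to 0.01). The ribosomal RNA methyltransferase Nop2 was at 5.89 to 6.28 in transgenic and 5.91 to 6.30 in non-transgenic samples (0.03, -0.20 to 0.27). These and Mybbp1a, a nucleolar protein that is counted in this list although it binds polymerase I factors, did not pass. Mybbp1a was at 8.11 to 8.49 in transgenic and 8.27 to 8.72 in non-transgenic samples (-0.19, -0.43 to 0.06).

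Nucleolin (Ncl) and nucleophosmin (Npm1), abundant proteins of the nucleolus, did not pass. Ncl was at 13.36 to 13.62 in transgenic and 13.47 to 13.68 in non-transgenic samples (-0.04, 95% interval -0.18 to 0.10). Npm1 was at 13.80 to 14.06 in transgenic and 13.72 to 14.07 in non-transgenic samples (0.01, -0.16 to 0.18). For 16 of the 24 genes that did not pass, the 95% interval of the brightest probe set lay within 0.5 of 0, which is 1.41-fold. It reached further for the other 8 (Twistnb, Taf1b, Fbl, Nop58, Rrp9, Nop10, Tcof1 and Ddx21). It also reached further at another probe set above the filter for 7 of the 16, which were Polr1a (-0.83 to 0.23 and -0.77 to 0.61), Nop56 (-0.51 to 0.09), Dkc1 (-1.02 to -0.24), Nolc1 (-1.16 to -0.07), Heatr1 (-0.78 to 0.02), Bms1 (-0.68 to -0.25) and Ncl (-0.51 to 0.24).

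Probe sets of the same gene did not always give the same answer. More than 1 probe set passed the filter for 23 of the 40 genes, 72 of 85 probe sets in all. Every such probe set was called in 2 genes (Polr1c and Nhp2), some were called in 7 (Polr1d, Polr1e, Taf1d, Dkc1, Utp15, Bms1 and Pes1), and none in 14. Ubtf, lower in the gene fit, is among these 14. Of all 16814 probe sets in the probe set fit, 34.0% were called. The sign differed between probe sets of Polr1d, Twistnb, Nolc1, Tcof1, Utp15 and Npm1. The further probe set of Pes1 was at the filter level, with 4.64 to 5.11 in transgenic and 4.61 to 5.38 in non-transgenic samples, and did not pass (-0.15).

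**Figure D3:**
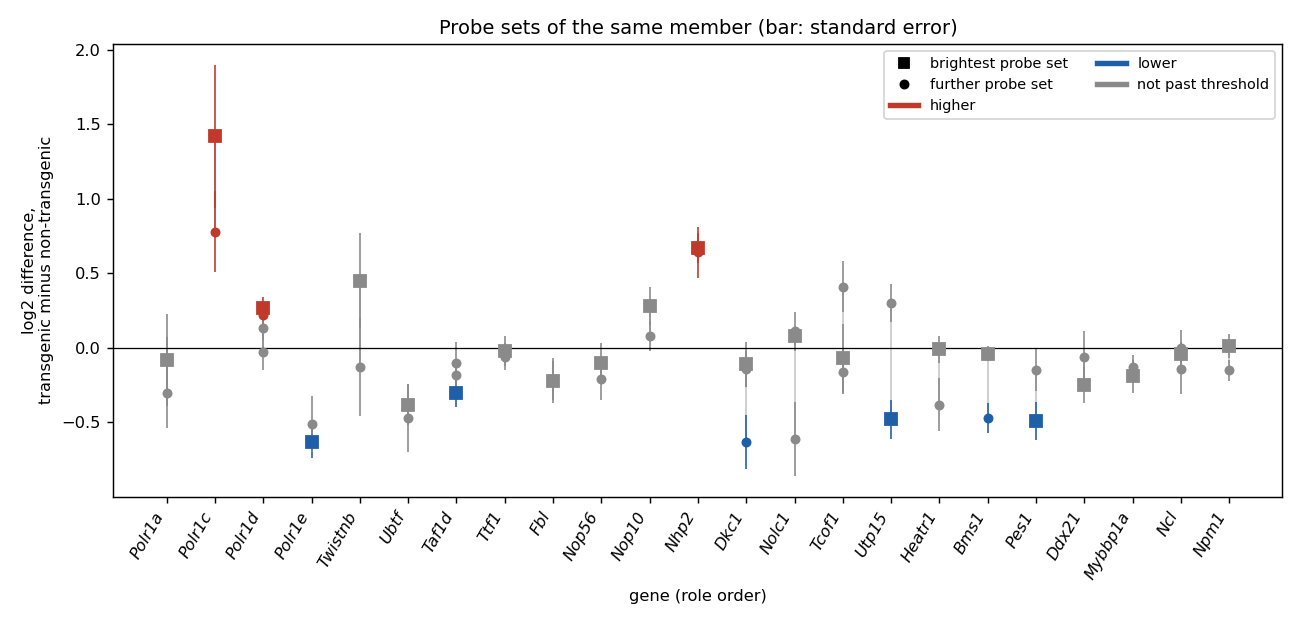
Log2 difference (transgenic minus non-transgenic, y axis) of every probe set above the filter for the 23 genes with more than 1; squares are the brightest probe set, bars standard errors, and colours the call in the probe set fit. Utp15 has probe sets on both sides of 0, at -0.48 and 0.30.

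The spread within groups was like that of other genes. The median SD of the 40 genes was 0.16 in transgenic and 0.17 in non-transgenic samples, against 0.16 and 0.19 over all genes tested. The highest SD among them was 0.45 in transgenic samples (Twistnb) and 1.39 in non-transgenic samples (Polr1c). Transgenic replicate 6 was the lowest of its group for 14 of the 40 genes and the highest for 11. Over all genes tested these shares were smaller, at 22.6% and 20.7%. Non-transgenic replicate 7 was the highest of its group for 18 of the 40 genes, and replicate 8 the lowest for 15. Over all genes tested these shares were smaller too, at 32.2% and 24.8%. With non-transgenic replicate 7 left out, 8 of the 40 genes were lower, against 12 with all samples. Leaving out any other 1 sample gave 9 to 11 lower. The share of all genes tested called lower in these fits is not given here.

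Genes of the same pathway outside the list of 40 were called at a similar rate. Of 156 tested, 21 were higher and 32 lower, 34.0% called against the background of 37.2%, with a median difference of -0.07. After centring each array on its median, 17 were higher and 44 lower. Among 50 further small subunit factors, 7 were higher and 13 lower (40.0% called). Rbm19, an RNA-binding protein needed early in development in the mouse, had the largest difference of the pathway, with 9.28 to 10.05 in transgenic and 7.22 to 7.48 in non-transgenic samples (2.34, SE 0.14, adjusted p = 3.24e-07). Rrp12 (0.54, adjusted p = 0.000649) was also higher, and so was Nop53 (0.92, adjusted p = 7.97e-05), which is counted in this list although it is known for large subunit assembly. Nol10 (-1.13, adjusted p = 3.61e-05), the GTPase-like factor Tsr1 (-0.99, adjusted p = 3.53e-05) and Imp4, a partner of the U3 snoRNP (-0.62, adjusted p = 0.000634), were lower. The groups did not overlap for any of these 6, which were chosen by their low adjusted p. Of all 156 genes, the groups did not overlap for 34, beside 2963 of the 10590 genes tested (28.0%).

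Among 51 further large subunit factors, 8 were higher and 9 lower, which is 33.3% called against 37.2% of all genes tested. Brix1 (0.63), Nifk (0.53) and the GTPase Gtpbp4 (0.57) were higher, and Ppan (-0.45) and Urb2 (-0.80) lower. Lsg1, a GTPase of the last cytoplasmic steps, was at least 1.64-fold lower, with 5 of 6 transgenic samples above the filter level. Of 11 further snoRNP assembly factors, 1 was higher (Ruvbl1, 0.49) and 1 lower (Pih1d1, -0.51), which is 18.2% called. Both proteins act in the chaperone complex that builds box C/D particles. Ruvbl1 lost its call when any 1 of 9 samples was left out (adjusted p up to 0.0905). Of 22 genes of the RNA exosome and of nucleases of ribosomal RNA processing, 2 were higher and 7 lower (40.9% called). Exosc9 (-0.49) and the RNase MRP and P proteins Pop1 (-0.43) and Pop5 (-0.45) were lower, and Mphosph6 (0.13) and Exosc8 (0.23) higher. Mphosph6 lost its call when any 1 of 7 samples was left out (adjusted p up to 0.116). The call of Exosc8 turned round with the mean of its probe sets (-0.81, adjusted p = 0.000962).

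Of 17 regulators of ribosomal RNA gene transcription, 2 were higher (11.8%, against 37.2% of all genes tested called) and the other 15 did not pass. Kdm7a, a histone demethylase, differed by 1.03 (adjusted p = 0.000146), a call that was lost with the mean of its probe sets (adjusted p = 0.295), and the chromatin remodeller Chd7 by 0.41 (adjusted p = 0.00566). Rpl11 (-0.24, adjusted p = 0.061) and Gtf3a (-0.25, adjusted p = 0.375), of the 5S ribosomal RNA pathway, did not pass.

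**Figure D4:**
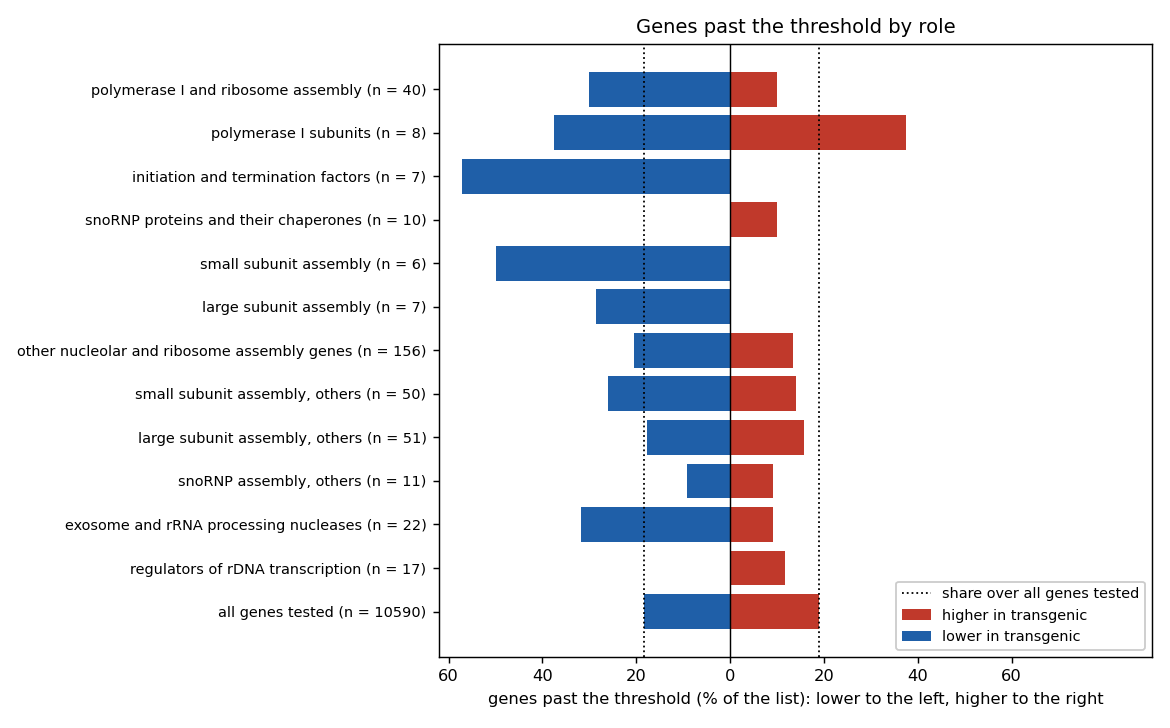
Share of genes past the threshold in each role (x axis, % of the list; lower to the left in blue, higher to the right in red), with all genes tested as the bottom bar and dotted lines. The 7 initiation and termination factors reach furthest to the left, with 4 lower, and the 10 snoRNP proteins have no lower call. Ncl and Npm1, the shared polymerase subunits and the 5S pathway have no bar.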

How the data were processed

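For each array the authors deposited a linear intensity value per probe set, from 1.22 to 71992.05. The submitters' processing notes name GCRMA, without a version. It models background from probe sequence, brings arrays to 1 distribution and combines probes, and it compresses the spread of dim probe sets, so small differences there are uncertain. Array medians lay between 17.5 and 20.1, and the values were taken to log2 without further normalization. Of 45101 probe sets, 34958 had 1 gene in the platform annotation, 932 several and 9211 were not listed. The brightest probe set of each gene was kept if above log2 5 in at least 4 samples. Groups were compared with limma 3.58.1 (R 4.3.3; lmFit, eBayes with a trend), with Benjamini-Hochberg adjustment over 10590 genes and a threshold of 0.05. A second fit held all 16814 probe sets above the filter. Single values were compared by an exact permutation test over 210 splits. Where samples of the dimmer group were below the level they were set to it, which gives a fold as "at least". The genes, their roles and the other lists were chosen with earlier results of these data known. Named genes are all 40, and up to 3 higher and 3 lower of each other list by adjusted p, every shared polymerase subunit, Bnc1 and the 3 brightest markers of each cell type. Sequences are from RefSeq (GRCm38.p6), matched by gene number for 36 of 40. Figures were drawn with matplotlib 3.10.9. The number of arrays limits the precision.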

Additional observations from a re-analysis of the deposited data

Results flagged for a closer look

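Single samples stood apart from the rest of their group for 5 of the 40 genes, out of 80 gene and group combinations examined; chance gives about 1 in 20. A sample was taken to stand apart where its gap to the nearest other sample was too large a part of the group's whole range. In 4 of the 5 cases it was transgenic replicate 6. There Rrn3 was at log2 9.14, with the next transgenic sample at 9.40, Nop58 was at 8.96, with the next at 9.44, and Utp15 was at 8.45, with the next at 8.89. Nop10 was the highest of its group there, at 11.24, with the next at 10.84. This array also had the largest difference between the 3′ and 5′ probe sets of beta-actin (5.13, where the transgenic median was 3.76 and the non-transgenic median 3.75); its part in these values was not tested. The last case was Heatr1 in non-transgenic replicate 7, at 9.42, with the next at 9.14.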

How the results depend on the processing

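No paired analysis was possible because the groups share no replicate number. The 4 higher and 12 lower genes kept their direction in each of 25 alternative fits that tested them. Only Znrd1, Rrn3, Taf1a and Nhp2 kept their call in every one. Leaving out 1 sample gave 3 to 5 higher and 8 to 11 lower of the 40, and 15 to 22 higher and 23 to 34 lower of the 156 other genes. With fewer samples, those numbered 1 to 6 gave 2 higher and 3 lower (6 and 9 of the others) and those numbered 7 to 13 gave 3 higher and 3 lower (14 and 13 of the others). No label calls these ranges batches, and with the range as a covariate 4 were higher and 11 lower. At an adjusted p of 0.01, 2 were higher and 4 lower (13 and 14 of the others). The share of all genes tested called under each of these alternatives is not given here. These counts therefore have no background beside them. Exosc8 reversed to -0.81 with the mean of its probe sets. Of 993 values of single genes under these fits, 74 lost a call and 11 gained one. Alternatives with an RNA length covariate or without both arrays of lowest correlation were chosen after seeing the data. Low signal limits Polr1b, which was near the filter level in both groups.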
